A study of Mus musculus with 8 samples.

Results

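The genes of the mitochondrial ribosome whose symbols begin with Mrpl or Mrps were followed in whole mouse skin on 8 microarrays. They were chosen by name alone: every non-control probe whose RefSeq accession maps to such a symbol was taken, which gave 78 genes and 99 probes, of 20284 named genes and 55681 non-control probes on the array. Of these, 49 are Mrpl genes of the large subunit series and 29 are Mrps genes of the small subunit series, and all 78 protein-coding Mrpl and Mrps genes of the RefSeq table had a probe. Its title speaks of Musashi1 overexpression; Msi1 codes for this protein, which binds RNA. Total RNA of 4 skins labelled DTG was compared with that of 4 skins labelled Control, so the comparison asks how the family differs between DTG and Control skin. The labels give neither the meaning of DTG nor strain, age, promoter or transgene for either group, and they call all 8 mice male. They do not state that the 4 skins of a group came from separate animals, so p-values measure only how far these samples differ, part of which may be technical.

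Mitochondria keep a ribosome of their own, descended from a bacterial one, which translates the few proteins that mitochondrial DNA encodes, all of them core parts of oxidative phosphorylation. Its ribosomal RNAs come from mitochondrial DNA, whereas its proteins are encoded in the nucleus, made in the cytosol and imported. The small subunit reads the messenger RNA and the large subunit joins the amino acids. Some of the proteins have counterparts in bacterial ribosomes and others were gained in mitochondria.

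Levels below are log2 of the scanner software's background-corrected signal, from which the 75th percentile of the non-control probes of the same array was subtracted. A log2 fold change is DTG minus Control, so a positive one means a higher signal in DTG skin. A gene was called at an adjusted p under 0.05 in limma, a linear model fitted to all 17768 named genes that lay above background, with Benjamini-Hochberg adjustment over all of them. SE is the standard error of a fold change and SD the spread over arrays. Brightness differs with the probe, so levels of different genes are not compared as amounts of RNA.

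Msi1 was higher in DTG skin on its responding probe, by 6.81 on the log2 scale (SE 1.02, limma adjusted p = 0.00292), while its other probe changed by -0.03 (SE 0.14, adjusted p = 0.902 in a limma fit over probes). The responding probe had no value on DTG 1. It read 3.85 to 4.16 on the other DTG arrays, against low and scattered values of -5.92 to -1.48 (SD 2.11) on the Control arrays. Several array measures moved with the group. Spots well above background made up 68.8% to 71.6% on DTG arrays, against 79.5% to 85.1% on Control arrays, and the log2 signal of negative-control spots was 4.27 to 4.69 on DTG and 2.40 to 3.29 on Control arrays. The DTG arrays lay in row 2 and the Control arrays in row 1 of 1 slide, so an effect of the row cannot be told apart from one of the group. Each of the 4 slide columns held 1 array of each group. With column as a block in the fit, 2 members were called higher (Mrpl47 and Mrpl46) and 5 lower (Mrps26, Mrpl48, Mrps16, Mrpl30 and Mrpl3), against the 8 and 9 described below without it. The share of all genes called in that fit is not given here, so the drop is not read as particular to the members. Xist, the RNA of the inactive X chromosome, was high and the Y-linked Eif2s3y low on 5 arrays (DTG 1, 3 and 4, Control 2 and 4), which goes against their male label. On the 3 others (DTG 2, Control 1 and 3) the reverse held.

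On this scale the family as a whole was nearly level between DTG and Control skin, with a few members moving each way. Of the 77 genes tested, 8 were higher and 9 were lower in DTG skin, and 60 were not called. The 17 called genes made up 22.1% of the members, whereas 32.4% of all 17768 genes tested were called, 11.1% higher and 21.2% lower. The median log2 fold change over the members was -0.11, with the middle 50% of genes between -0.24 and 0.12, against a median of -0.15 over all genes. Members ranged from -0.52 to 0.998, and 4 of them (5.2%) changed by at least 0.5 in either direction, against 28.9% of all genes. This low share was not particular to the members. Among the lists described below it was 2.5% of respiratory chain subunits, and 0% of cytosolic ribosomal protein genes and of translation factors. It was 12.5% of mitoribosome assembly genes and 35% of tRNA synthetases. In 24 members (31.2%) every DTG array lay on the same side of every Control array, and the same was true of 34.6% of all genes. In these bulk samples, fewer cells of a type and less RNA per cell cannot be told apart.

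**Figure D1:**
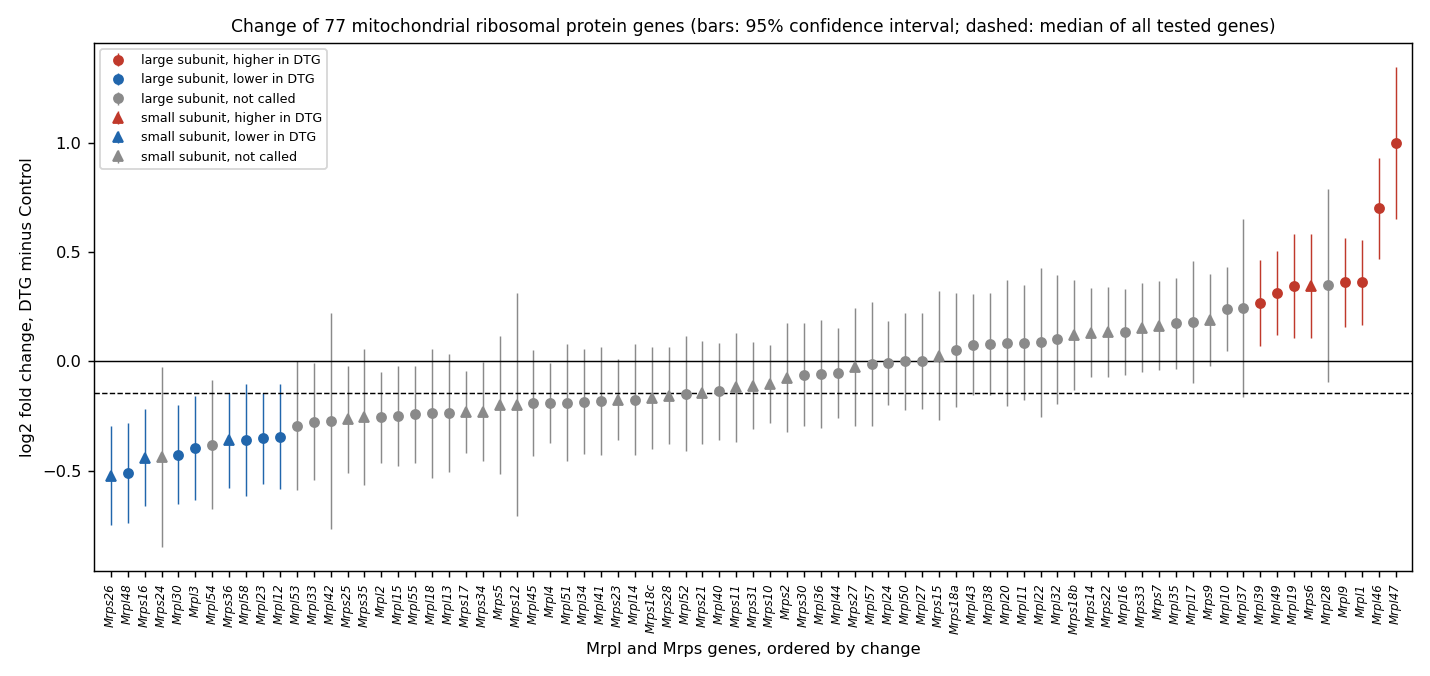
Log2 fold change (DTG minus Control, vertical axis) of the 77 Mrpl and Mrps genes tested, ordered by change; points show the estimate, bars its 95% confidence interval, circles the large and triangles the small subunit. The 60 grey genes fill the middle, the 9 called lower reach -0.52 and the 8 called higher reach 0.998; the dashed line marks the median of all genes at -0.15.

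The array-by-array view showed the same near balance. The median level over the members was 2.33, 2.24, 2.36 and 2.39 on the DTG arrays, against 2.48, 2.40, 2.47 and 2.23 on the Control arrays. The groups overlapped: Control 4 had the lowest median of the 8 arrays and Control 1 the highest. The probes were bright. Of the 99 member probes, 98 were above background on all 8 arrays. The exception was the only probe of Mrpl21, which codes for a large subunit protein with a bacterial counterpart; it was not well above background on any array and was not tested.

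By subunit, 7 of the 50 large subunit genes were higher and 6 lower, with a median of -0.06, and 1 of the 27 small subunit genes was higher and 3 were lower, with a median of -0.14. Mrps18a and Mrps30 are counted with the large subunit, where their proteins sit. By origin, 5 of 44 genes with a bacterial counterpart were higher and 5 lower (median -0.09), and 3 of 32 genes of proteins gained in mitochondria were higher and 3 lower (median -0.13). Called in either direction were 26% of the large and 14.8% of the small subunit genes, against 32.4% of all genes. By origin the shares were 22.7% with a bacterial counterpart and 18.75% gained in mitochondria. Differences between these classes were not tested. Mrps36 belongs to neither class, since its protein is known, in yeast and human cells, as a component of the alpha-ketoglutarate dehydrogenase complex. By its symbol it is still counted with the small subunit above, as 1 of the 3 lower.

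The largest change of the family was a rise of Mrpl47, which codes for a large subunit protein whose bacterial counterpart lies at the exit of the tunnel for the new protein chain. On probe A_66_P126300 the level was 2.38, 2.36 and 2.50 on DTG 1, 3 and 4, against 1.65, 1.32, 1.59 and 1.104 on the Control arrays. The spot of DTG 2 carried the software's outlier flag and was left out. All DTG values exceeded all Control values, and the log2 fold change was 0.998, or 1.997-fold (SE 0.15, limma adjusted p = 0.00295). With the flagged spot kept it was 0.93. A dimmer probe of Mrpl47 kept only 3 unflagged spots, at 1.18 on DTG 4 against 0.56 on Control 2 and 0.10 on Control 4; its change of 0.85 was not called (adjusted p = 0.114 in the fit over probes).

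Mrpl46, which codes for a large subunit protein gained in mitochondria, had the next largest rise. Probe A_66_P126320 read 1.68, 1.59, 1.42 and 1.55 on the DTG arrays, against 0.69, 0.86, 1.003 and 0.89 on the Control arrays. The groups stood well apart, and the log2 fold change was 0.70, or 1.62-fold (SE 0.10, limma adjusted p = 0.00181). Both genes kept their call when any 1 array was left out, with changes of 0.89 to 1.08 for Mrpl47 and 0.64 to 0.75 for Mrpl46. For Mrpl47, leaving out DTG 2 removed no value, since its spot there was already left out. Among the 5 arrays of high Xist the changes were 1.20 for Mrpl47 (adjusted p = 0.00987) and 0.68 for Mrpl46 (adjusted p = 0.0282). Among the 3 arrays of low Xist, with 1 DTG array, Mrpl46 changed by 0.74 and was not called (adjusted p = 0.127), and Mrpl47 had no value.

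The promoter windows of these genes are shown because they had the largest rises; each runs from 250 bases before to 50 after the transcript start, 5′ to 3′ in the direction of the gene, from RefSeq on build GRCm38.p6. The Mrpl47 window is chr3:32736706-32737005 and the Mrpl46 window chr7:78783040-78783339, both on the minus strand. Neither holds any of the motifs searched below, so neither has capitals.
Mrpl47: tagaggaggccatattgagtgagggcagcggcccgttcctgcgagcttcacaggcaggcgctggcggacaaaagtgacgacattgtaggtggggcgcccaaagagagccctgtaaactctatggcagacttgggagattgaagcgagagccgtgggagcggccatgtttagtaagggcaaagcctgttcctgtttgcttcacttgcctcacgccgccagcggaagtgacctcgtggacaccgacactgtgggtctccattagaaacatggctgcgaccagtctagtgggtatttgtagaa
Mrpl46: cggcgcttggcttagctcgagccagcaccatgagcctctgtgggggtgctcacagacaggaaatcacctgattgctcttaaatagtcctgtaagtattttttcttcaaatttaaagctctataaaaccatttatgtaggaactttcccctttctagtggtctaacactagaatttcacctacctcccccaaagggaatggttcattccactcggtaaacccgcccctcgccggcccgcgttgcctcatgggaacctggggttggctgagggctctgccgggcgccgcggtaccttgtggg

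The other 6 genes called higher changed by 0.27 to 0.36. Mrpl1 codes for the protein of the mobile stalk through which used transfer RNA leaves the ribosome. Its level was 1.82, 1.92, 1.72 and 1.74 on the DTG arrays, against 1.38, 1.41, 1.47 and 1.503 on the Control arrays. The groups did not overlap (log2 fold change 0.36, SE 0.08, adjusted p = 0.0139). Mrpl9, a large subunit gene with a bacterial counterpart, stood at 1.24, 1.02, 1.06 and 1.001 in DTG skin, against 0.67, 0.67, 0.74 and 0.80 in Control skin. Its change was also 0.36 (SE 0.09, adjusted p = 0.0170), again without overlap. Both calls held when any 1 array was left out, with changes of 0.32 to 0.39 for Mrpl1 and 0.31 to 0.39 for Mrpl9. Neither held with slide column as a block (adjusted p = 0.0537 and 0.0579).

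Mrps6 was the 1 small subunit gene called higher; its protein has a bacterial counterpart. Its level was 2.58, 2.42, 2.70 and 2.50 on the DTG arrays, against 2.33, 2.29, 2.02 and 2.20 on the Control arrays. The lowest DTG array lay just above the highest Control array (0.34, SE 0.10, adjusted p = 0.0366). Mrpl19, whose bacterial counterpart lies where the subunits meet, read 1.31, 1.39 and 1.29 on DTG 1, 3 and 4, with the flagged spot of DTG 2 left out, against 0.87, 1.06, 0.91 and 1.105 on the Control arrays. All DTG values were the higher ones (0.34, SE 0.10, adjusted p = 0.0375). Mrpl39, a gene gained in mitochondria, stood at 2.20, 2.23, 2.25 and 2.14 in DTG skin, against 1.97, 1.97, 2.03 and 1.79 in Control skin. The groups were separate (0.27, SE 0.09, adjusted p = 0.0447). These calls were fragile: with 1 array left out, Mrps6 and Mrpl19 were each called in 2 of 8 fits (Mrps6 without DTG 2 or Control 1, Mrpl19 without DTG 2 or Control 4) and Mrpl39 in 0 of 8. For Mrpl19 the fit without DTG 2 removed no value, since its spot there was already left out. The largest adjusted p was 0.0969 for Mrps6 (without Control 3), 0.0992 for Mrpl19 (without DTG 3) and 0.100 for Mrpl39 (without DTG 2), while the changes stayed at 0.28 to 0.39, 0.30 to 0.38 and 0.22 to 0.29. With slide column as a block none of these 3 was called (adjusted p = 0.0959, 0.102 and 0.0821).

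Mrpl49, of a large subunit protein gained in mitochondria, gave opposite directions on its probes. The brighter probe, A_51_P261351, read 2.14, 2.10, 2.14 and 2.28 on the DTG arrays, against 1.88, 1.83, 1.93 and 1.77 on the Control arrays. It was called higher (0.31, SE 0.08, adjusted p = 0.0241), in 5 of 8 fits with 1 array left out (lost without DTG 4, Control 2 or Control 4, largest adjusted p = 0.0684), and not with slide column as a block (adjusted p = 0.0742). The dimmer probe, A_55_P1957909, read 1.02, 0.51 and 0.85 on DTG 1, 2 and 4, against 1.40, 1.17 and 1.17 on Control 1, 2 and 4. Its values were all lower in DTG skin, with a change of -0.45 that was not called (adjusted p = 0.0807 in the fit over probes). The mean of both probes changed by 0.01, so the direction of Mrpl49 rests on the probe used.

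**Figure D2:**
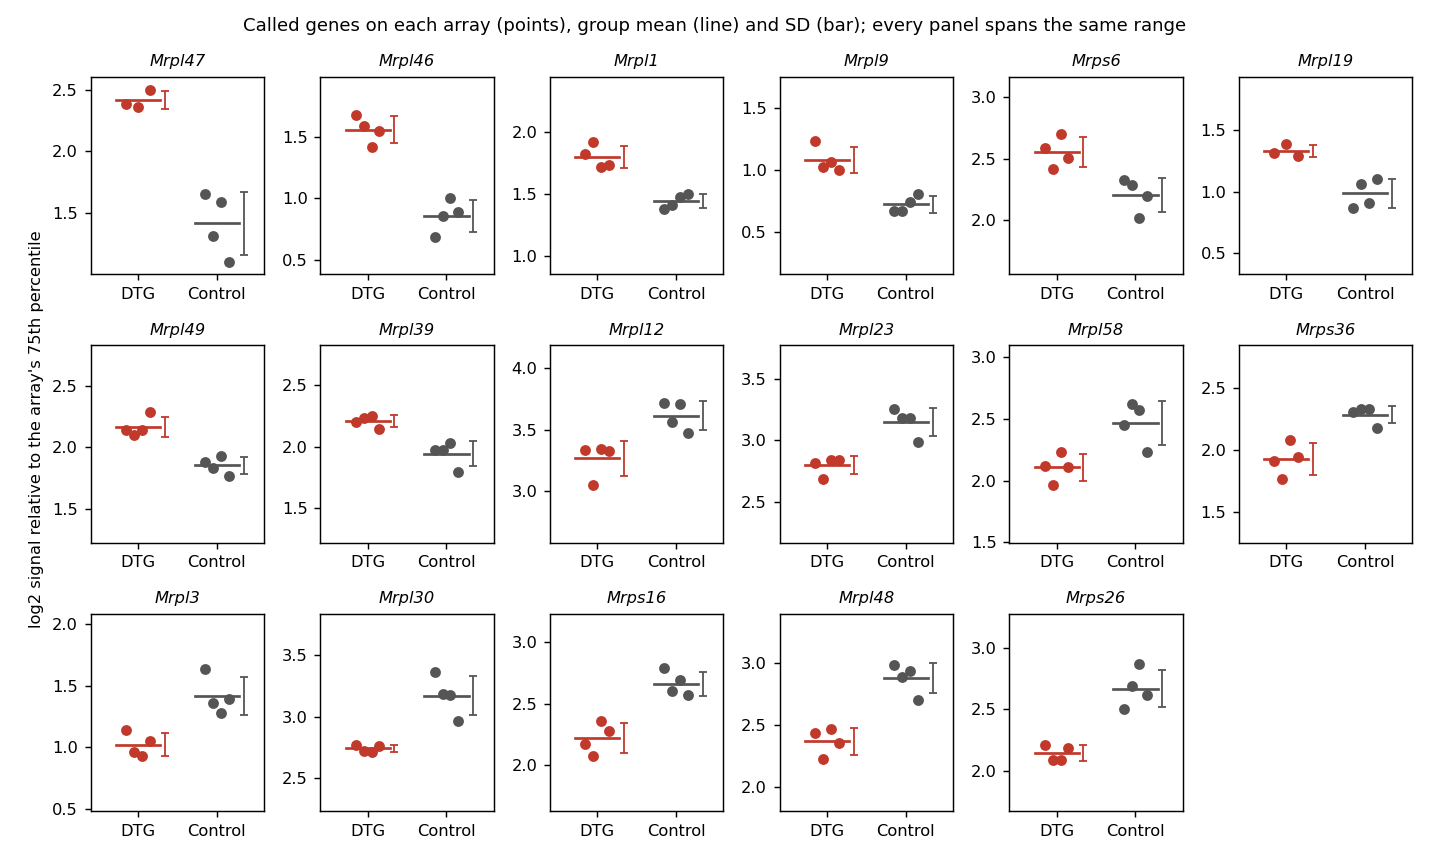
Scaled log2 signal, as defined above (vertical axis; the span is the same in every panel) of the 17 called genes on each array, DTG left and Control right; lines mark group means and bars 1 SD. In 16 panels the groups do not overlap; in Mrpl58 the highest DTG and the lowest Control value meet at 2.23.

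The largest fall was that of Mrps26, of a small subunit protein gained in mitochondria. On probe A_51_P339713 it read 2.21, 2.09, 2.09 and 2.19 on the DTG arrays, against 2.51, 2.69, 2.86 and 2.61 on the Control arrays. The groups did not overlap, and the log2 fold change was -0.52 (SE 0.10, 1.44-fold lower, limma adjusted p = 0.00577). The second probe of Mrps26, A_55_P1992989, also fell, by 0.46 on the log2 scale (adjusted p = 0.0106 in the fit over probes). Mrpl48, of a large subunit protein gained in mitochondria, stood at 2.43, 2.22, 2.47 and 2.35 in DTG skin, against 2.99, 2.89, 2.94 and 2.71 in Control skin. It too was separate on all arrays (-0.51, SE 0.10, adjusted p = 0.00646). Both kept their call whichever array was left out, with changes of -0.58 to -0.46 for Mrps26 and -0.57 to -0.46 for Mrpl48.

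Mrps16 and Mrpl30, each with a bacterial counterpart, followed. Mrps16, of the small subunit, read 2.17, 2.07, 2.36 and 2.28 on the DTG arrays, against 2.79, 2.60, 2.69 and 2.57 on the Control arrays. Every DTG value was the lower (-0.44, SE 0.10, adjusted p = 0.0109). Mrpl30, of the large subunit, read 2.77, 2.72, 2.71 and 2.77 on the DTG arrays, against 3.36, 3.18, 3.17 and 2.97 on the Control arrays. Its SD was 0.03 over the DTG arrays and 0.16 over the Control arrays, without overlap (-0.43, SE 0.10, adjusted p = 0.0132). Both were called in all 8 fits with 1 array left out, with changes of -0.49 to -0.39 for Mrps16 and -0.50 to -0.36 for Mrpl30.

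Windows of falling genes were taken in order of fall among the called members with 1 listed start. They are those of Mrps26 and Mrpl30, shown with motif matches in capitals. Mrpl48 and Mrps16 fell more than Mrpl30 and are not shown. In the search below, the window of Mrpl48 held none of the motifs and that of Mrps16 an ETS match. The Mrps26 window, chr2:130563507-130563806 on the plus strand, holds an ETS match and 2 overlapping matches of the NRF1 motif close to the start, and the Mrpl30 window, chr1:37890227-37890526 on the plus strand, holds 1 NRF1 match 83 bases before it. The motifs are spelled out below.
Mrps26: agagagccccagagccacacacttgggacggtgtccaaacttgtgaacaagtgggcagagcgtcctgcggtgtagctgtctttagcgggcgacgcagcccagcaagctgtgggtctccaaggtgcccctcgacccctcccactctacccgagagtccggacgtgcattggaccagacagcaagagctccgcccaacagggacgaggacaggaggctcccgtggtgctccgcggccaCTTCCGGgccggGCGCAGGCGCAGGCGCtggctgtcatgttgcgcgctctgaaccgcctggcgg
Mrpl30: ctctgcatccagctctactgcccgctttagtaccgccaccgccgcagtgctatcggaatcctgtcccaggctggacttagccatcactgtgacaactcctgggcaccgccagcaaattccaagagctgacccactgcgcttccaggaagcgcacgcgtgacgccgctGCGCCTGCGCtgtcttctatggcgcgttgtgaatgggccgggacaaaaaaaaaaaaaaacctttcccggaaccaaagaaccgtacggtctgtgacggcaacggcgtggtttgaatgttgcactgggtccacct

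The other 5 genes called lower changed by -0.40 to -0.35. Mrpl3, whose bacterial counterpart reaches towards the site where amino acids are joined, read 1.14, 0.96, 0.93 and 1.06 on the DTG arrays, against 1.64, 1.36, 1.28 and 1.39 on the Control arrays. The groups were separate (-0.40, SE 0.10, adjusted p = 0.0213). Mrpl23, which in bacteria lies at the tunnel exit, as does the counterpart of Mrpl47, stood at 2.81, 2.69, 2.84 and 2.84 in DTG skin, against 3.25, 3.18, 3.18 and 2.98 in Control skin. It was lower on every DTG array (-0.35, SE 0.09, adjusted p = 0.0206). Mrps36 read 1.91, 1.77, 2.08 and 1.94 on the DTG arrays, against 2.31, 2.33, 2.33 and 2.18 on the Control arrays. It fell on its brighter probe (-0.36, SE 0.09, adjusted p = 0.0209) and on its dimmer one (-0.29, adjusted p = 0.0419 in the fit over probes). Each of Mrpl3, Mrpl23 and Mrps36 was called in 6 of 8 fits with 1 array left out. The largest adjusted p was 0.0567 for Mrpl3 (without DTG 2; also lost without DTG 3). It was 0.0577 for Mrpl23 and 0.0589 for Mrps36 (both without Control 3; both also lost without DTG 2). With slide column as a block Mrpl3 was called (adjusted p = 0.0335), and Mrpl23 and Mrps36 were not (adjusted p = 0.0606 and 0.0561).

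Mrpl12 codes for the protein of the stalk that draws translation factors to the ribosome. Its level was 3.34, 3.05, 3.35 and 3.33 on the DTG arrays, against 3.71, 3.56, 3.71 and 3.47 on the Control arrays. The groups were separate, with DTG 2 apart from the other DTG arrays (-0.35, SE 0.11, adjusted p = 0.0369). Mrpl58 codes for the peptidyl-tRNA hydrolase that frees stalled ribosomes and is also built into the large subunit. It read 2.12, 1.97, 2.23 and 2.11 in DTG skin, against 2.45, 2.63, 2.58 and 2.23 in Control skin. DTG 3 and Control 4 met (-0.36, SE 0.11, adjusted p = 0.0399). With 1 array left out, Mrpl12 was called in 1 of 8 fits (without Control 4) and Mrpl58 in 2 of 8 (without DTG 3 or Control 4). Their largest adjusted p values, 0.0968 and 0.104, both came without Control 3, with changes over the 8 fits of -0.39 to -0.27 and -0.44 to -0.31. Neither was called with slide column as a block (adjusted p = 0.0626 and 0.0802).

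Most members did not pass the test. Their intervals hold for the scale and the probe used here and do not cover the choice of either. Mrps12, whose protein guards the accuracy of decoding in bacteria, read 1.40, 1.54, 2.33 and 2.16 on the DTG arrays, against 1.82, 2.20, 2.27 and 1.92 on the Control arrays. Its groups overlapped, and the change of -0.20 had a 95% confidence interval of -0.71 to 0.31. The family of small proteins that share the name Mrps18 has a member in each part of the ribosome. Mrps18a, of the large subunit, averaged 3.24 ± 0.13 in DTG skin and 3.19 ± 0.17 in Control skin (SD, n = 4 each), with an interval of -0.21 to 0.31. Mrps18b, gained in mitochondria, changed by 0.12 (interval -0.13 to 0.37), and Mrps18c, with a bacterial counterpart, by -0.17 (interval -0.40 to 0.07). Mrps30, of the large subunit, changed by -0.06 (interval -0.30 to 0.17). With spike-in scaling Mrps18a, Mrps18b, Mrps18c and Mrps30 changed by 0.54, 0.60, 0.32 and 0.42, above these intervals. Mrps12 changed by 0.28 on that scale, within its interval. The second probe of Mrps18b changed by 0.48, also above the interval, and was not called (adjusted p = 0.0656 in the fit over probes).

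By signal of the probe, which does not rank the amounts of RNA, the brightest besides that of Mrpl12 belonged to Mrpl51, Mrpl33 and Mrpl2, all of the large subunit. Mrpl51 averaged 3.76 ± 0.11 in DTG and 3.95 ± 0.19 in Control skin, Mrpl33 3.62 ± 0.06 in DTG and 3.90 ± 0.21 in Control skin, and Mrpl2 3.32 ± 0.12 in DTG and 3.57 ± 0.06 in Control skin (SD, n = 4 each). None of these 3 was called (adjusted p = 0.238, 0.103 and 0.0614), although for Mrpl2 every DTG array lay below every Control array. The 4 dimmest were those of Mrps27, Mrpl35, Mrpl37 and Mrps2, with changes of -0.03, 0.17, 0.24 and -0.07, none called. Mrpl37, of a large subunit protein gained in mitochondria, was the least even of them, at 0.45, 0.26, 0.14 and 0.31 on the DTG arrays and -0.45, 0.20, 0.02 and 0.42 on the Control arrays.

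For 21 genes a second probe could be read, and for no gene were both probes called in opposite directions. Mrps25, of a small subunit protein gained in mitochondria, had probes of opposite sign with 1 of them called, as had Mrpl49 above. Its brighter probe changed by -0.27 (SE 0.11) and was not called (adjusted p = 0.0965 in the fit over probes), with DTG lower on every array. Its dimmer probe read -0.99, -0.61, -1.14 and -0.54 on the DTG arrays, against -1.13, -1.93, -1.66 and -1.53 on the Control arrays, and was called higher (0.74, SE 0.20, adjusted p = 0.0236), with DTG 3 and Control 1 overlapping. Both probes of Mrpl10, the protein that anchors the Mrpl12 stalk, were higher in DTG skin on every array. The brighter changed by 0.24 (adjusted p = 0.0677) and the dimmer by 0.49 (adjusted p = 0.0193). Mrpl15, Mrpl41, Mrpl50, Mrps14 and Mrps23 had probes of opposite sign, with neither called. Where 10 spots of 1 probe were printed (Mrpl34, Mrpl50 and Mrps35), the spots of an array differed by an SD of 0.04 to 0.05, and the arrays of a group by 0.10 to 0.21.

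The rest of the mitochondrial translation machinery was described from lists written by function. The first list, of 6 genes, held mitoribosome proteins under other names and Oxa1l, which is not a ribosomal protein but inserts new chains into the inner membrane. Oxa1l was lower (-0.37, SE 0.09, adjusted p = 0.0146) and the 5 mitoribosome proteins were not called. Of 13 translation factors, Gfm2, a ribosome recycling factor, was higher (0.36, SE 0.09, adjusted p = 0.0173), and Guf1, an elongation factor (-0.38, SE 0.08, adjusted p = 0.0104), and Lrpprc, which stabilises mitochondrial messenger RNA (-0.27, SE 0.08, adjusted p = 0.0413), were lower. The median of the translation factors was 0.01. Called in either direction were 16.7% of the first list and 23.1% of the factors, against 32.4% of all genes.

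The mitochondrial tRNA synthetases, which load amino acids on transfer RNA, were lower more often than higher. The list of 20 genes also holds Gatb, Gatc and Qrsl1, which are not synthetases and were not called. Of the 20 genes, 3 were higher and 9 lower, 60% in all, against 32.4% of all genes, and their median was -0.33. With spike-in scaling the median was 0.16 and 13 of the 20 estimates were above 0. Vars2, the valine enzyme, averaged -0.63 ± 0.20 in DTG and 0.30 ± 0.04 in Control skin (SD, n = 4 each; change -0.93, SE 0.11, adjusted p = 0.000763). Iars2, the isoleucine enzyme, fell by 0.67 (SE 0.11, adjusted p = 0.00262). Wars2, the tryptophan enzyme, went the other way (0.45, SE 0.09, adjusted p = 0.00834). The difference between this list and the ribosomal proteins was not tested.

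Of 24 genes for assembly of the mitoribosome and modification of its RNA, 3 were higher and 4 lower, with a median of -0.14. These calls made up 29.2% of the list, against 32.4% of all genes. Mettl15 and Tfb1m, which methylate the RNA of the small subunit, fell by 0.72 (SE 0.09, adjusted p = 0.00115) and by 0.69 (SE 0.12, adjusted p = 0.00374). Mterf3, which acts in mitochondrial transcription and ribosome assembly, rose by 0.73 (SE 0.16, adjusted p = 0.0112), and Ngrn, needed for the RNA of the large subunit, by 0.46 (SE 0.08, adjusted p = 0.00338). Of 16 genes for copying and transcribing mitochondrial DNA and processing its RNA, 2 were higher and 1 lower, 18.75% in all, also below the share of all genes. Trmt10c (0.50, SE 0.17, adjusted p = 0.0491) and Elac2 (0.37, SE 0.11, adjusted p = 0.0332), which cut transfer RNA out of the long transcripts, were higher, while Hsd17b10, a partner of Trmt10c in the same enzyme, was lower (-0.35, SE 0.09, adjusted p = 0.0186).

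Among 10 nuclear regulators of genes for mitochondrial proteins, 0 were higher and 2 lower (20%), near the 21.2% of all genes called lower. These were the coactivator Ppargc1b (-0.61, SE 0.19, adjusted p = 0.0400) and the nuclear receptor Esrra (-0.48, SE 0.12, adjusted p = 0.0194). Of 40 nuclear-encoded respiratory chain subunits, 0 were higher and 5 lower (12.5%), a smaller share than among all genes, with a median of -0.22. Atp5d, of the ATP synthase, fell by 0.52 (SE 0.10, adjusted p = 0.00646) and Sdhb, of succinate dehydrogenase, by 0.33 (SE 0.08, adjusted p = 0.0194). Of 36 cytosolic ribosomal protein genes, 0 were higher and 16 lower (44.4%, against 21.2% of all genes), with a median of -0.32 and all 36 estimates below 0. Rpl10a fell by 0.49 (SE 0.10, adjusted p = 0.00756). These bright genes depended on the scaling: the cytosolic ribosome median was -0.09 after quantile scaling and 0.16 when spike-in spots set the scale, and the respiratory chain median was -0.05 and 0.26.

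**Figure D3:**
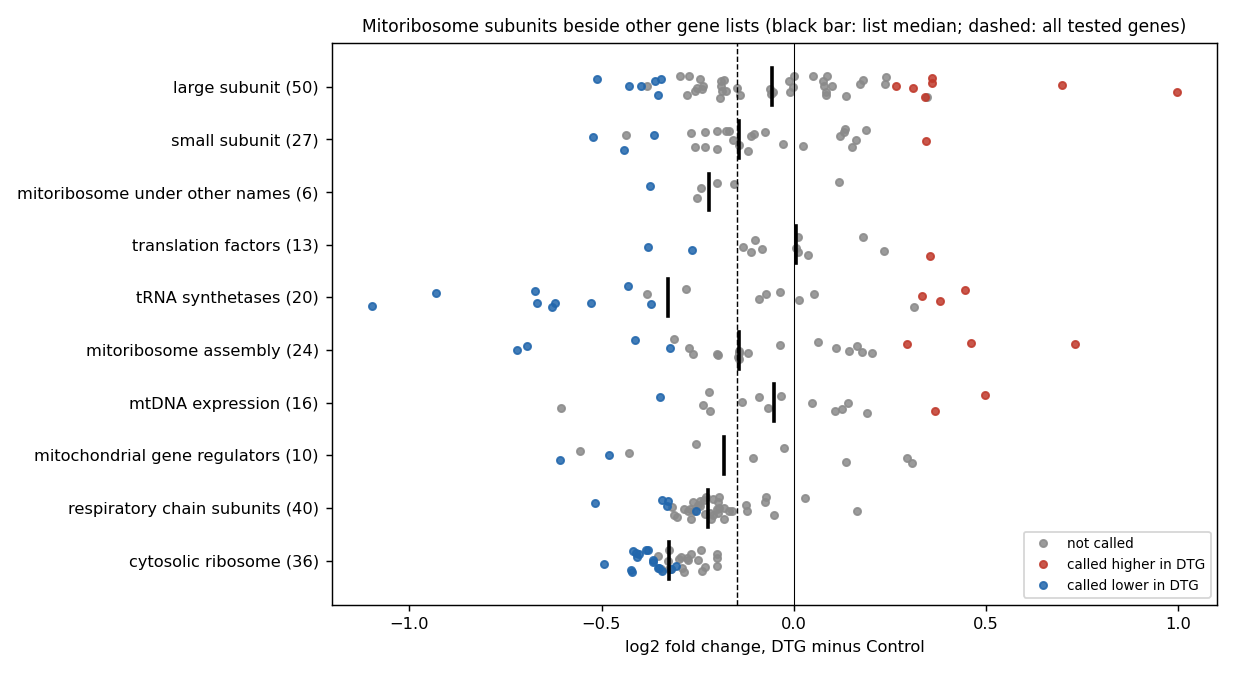
Log2 fold change (DTG minus Control, horizontal axis) of each gene tested, by list (rows, number of genes in brackets); red points were called higher, blue lower and grey not called, black bars mark list medians and the dashed line the median of all genes at -0.15. Both subunits of the mitoribosome spread to either side of 0, tRNA synthetases reach -1.098, and all 36 cytosolic ribosomal protein genes lie below 0 on this scale.

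Markers of the cell types of skin are set beside the 11.1% of all genes called higher and the 21.2% called lower. Of 14 keratinocyte markers, 2 were higher and 8 lower, and their summed signal relative to the 75th percentile was 151 to 180 on DTG arrays, against 184 to 241 on Control arrays. Adipocyte markers had 0 of 13 higher and 8 lower (sums 95.9 to 100 in DTG, 102 to 131 in Control), and skeletal muscle markers, of a tissue rich in mitochondria, 0 of 13 higher and 4 lower (168 to 182 in DTG, 201 to 222 in Control). Fibroblast markers had 0 of 9 higher and 4 lower (126 to 148 in DTG, 147 to 199 in Control), and immune markers 0 of 9 higher and 1 lower (68.1 to 80.1 in DTG, 74.9 to 82.2 in Control). Each marker tested was above background on at least 1 array, which the filter for tested probes already required. On the spike-in scale the median change turned from below to above 0 for keratinocyte (-0.37 as reported, 0.11 with spike-in scaling), adipocyte (-0.32 and 0.16), skeletal muscle (-0.22 and 0.26) and fibroblast markers (-0.34 and 0.14), and for immune markers it was -0.03 and 0.45. The part of these cell types in the changes of the mitoribosome genes was not tested.

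The number of calls in each direction depended on how the arrays were put on 1 scale. After quantile scaling 13 members were higher and 8 lower, against 12.9% and 18.6% of all genes. With the arrays scaled on spike-in control spots, 34 were higher and 0 lower, against 31.6% and 2.27% of all genes, and the median moved to 0.37 for the members and 0.34 for all genes. With the all-gene median subtracted, the members stood at 0.03 as reported and at 0.04 on the spike-in scale. Both scales only shift whole arrays, so these values had to lie close. The value was 0.05 after quantile scaling and -0.01 after another background correction (normexp). Mrpl47 and Mrpl46 were called higher on every scale, with spike-in changes of 1.48 and 1.18. Of the 9 genes called lower, Mrps26 (-0.04) and Mrpl48 (-0.03) kept their sign on the spike-in scale without a call, and the 7 others turned to between 0.04 and 0.14, not called.

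**Figure D4:**
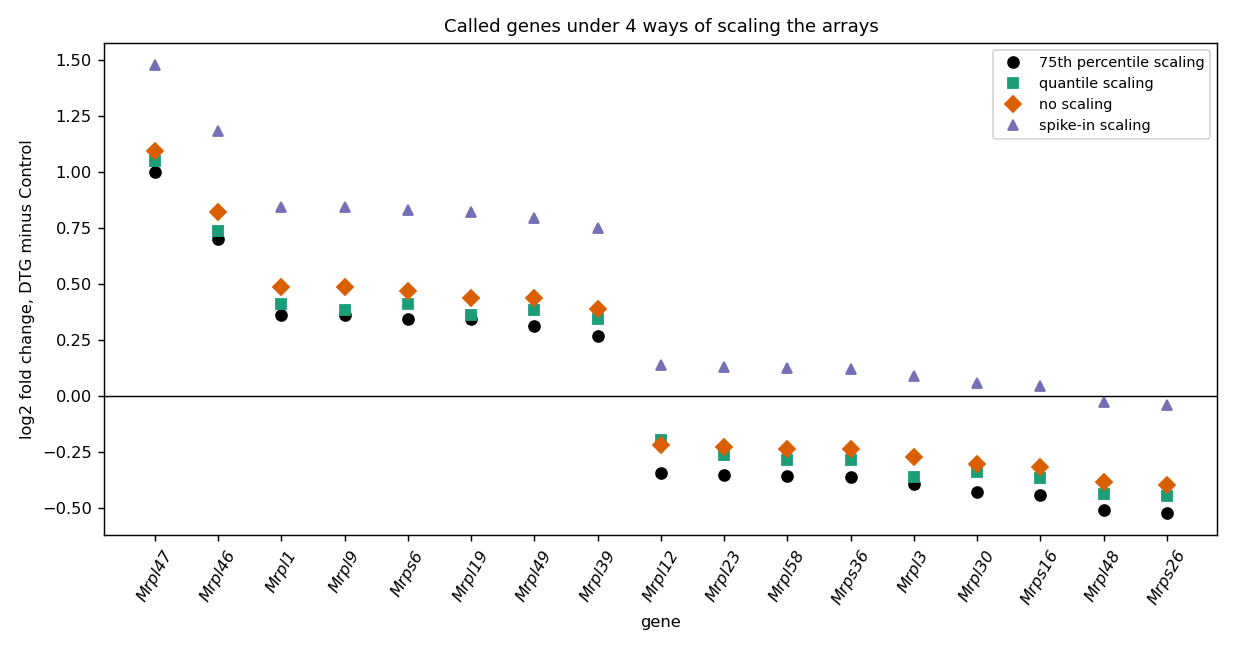
Log2 fold change (DTG minus Control, vertical axis) of the 17 called genes (horizontal axis) under 4 ways of scaling the arrays, shown by marker shape. Mrpl47 and Mrpl46 lie above 0.5 under each; with spike-in scaling the 9 genes called lower lie between -0.04 and 0.14.

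Whether the change differed between the arrays of high and of low Xist was tested in a model with that class as a further term. In limma 0 of 17634 genes had an adjusted p under 0.05 for the difference. Of the 75 members with a value, 6 had an unadjusted p under 0.05 (smallest adjusted p = 0.681), and the estimate of the difference, high minus low, was above 0 in 66. The share of all genes above 0 is not given here, so the 66 is not read as particular to the members. The low class holds 1 DTG array (DTG 2), on which all these differences rest, and Mrpl47 and Mrpl19 could not be fitted. Within the 5 arrays of high Xist, 2 members were called higher (Mrpl47 and Mrpl46) and 1 lower (Mrps26, -0.49, adjusted p = 0.0403), and within the 3 of low Xist 0 were called in either direction, with 1 DTG array assumed to vary like the others. The median change was -0.01 in the high and -0.23 in the low class.

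Many mitoribosome genes share a start region with a gene on the opposite strand. In RefSeq, 25 of 68 members with a promoter entry (36.8%) had a neighbour that begins within 1000 bases and runs away from them, against 15.5% of the named genes tested. For 22 pairs both genes were tested. The estimates of member and neighbour had the same sign in 13 pairs, most of them not called, and both genes were called in 1 pair. That pair was Mrpl30 and Mitd1, a gene of cell division whose start lies 66 bases away. Mitd1 fell by 0.49 (SE 0.09, adjusted p = 0.00457), next to the -0.43 of Mrpl30, and the changes differed by 0.06 (p = 0.571, exact two-sided permutation test).

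The neighbours of 3 genes called higher were not called. Mrpl46 starts 42 bases from Mrps11, a small subunit gene with a bacterial counterpart, and the windows of the pair, of which that of Mrpl46 is printed above, share 141 bases. Mrps11 read 1.91, 1.71, 1.83 and 1.76 on the DTG arrays, against 1.82, 2.003, 2.13 and 1.74 on the Control arrays. Its groups overlapped and it was not called (-0.12, SE 0.11, adjusted p = 0.422), and the change of Mrpl46 exceeded that of Mrps11 by 0.82. Mrpl47 starts 308 bases from Ndufb5, of respiratory complex I, which changed by -0.27 (SE 0.10, adjusted p = 0.0739); over the 7 arrays with both values its change lay 1.24 below that of Mrpl47. Mrpl49 starts 192 bases from Fau, which codes for a cytosolic ribosomal protein and changed by -0.31 (SE 0.12, adjusted p = 0.0701), 0.63 below the brighter probe of Mrpl49. The dimmer Mrpl49 probe changed by -0.45, below Fau, so the direction of this difference rests on the probe used.

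Of the pairs whose member was not called, Mrps12 changed by 0.58 less than Sars2, the serine enzyme of mitochondria (0.38, SE 0.12, adjusted p = 0.0407). Mrpl37 changed by 1.25 more than Cyb5rl, which fell by 1.01 (SE 0.12, adjusted p = 0.000836). Mrpl51 changed by 0.58 more than Ncapd2, a condensin subunit, which fell by 0.77 (SE 0.15, adjusted p = 0.00701). Exact two-sided permutation tests of the difference in change reached p = 0.0286, the smallest that these numbers of arrays allow, in 7 of 22 pairs. Adjusted over the 22 pairs this was 0.0898, so 0 pairs passed. With that smallest possible p, 7 pairs at it are too few for any to pass. The outcome therefore does not show that the genes of a pair change alike.

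**Figure D5:**
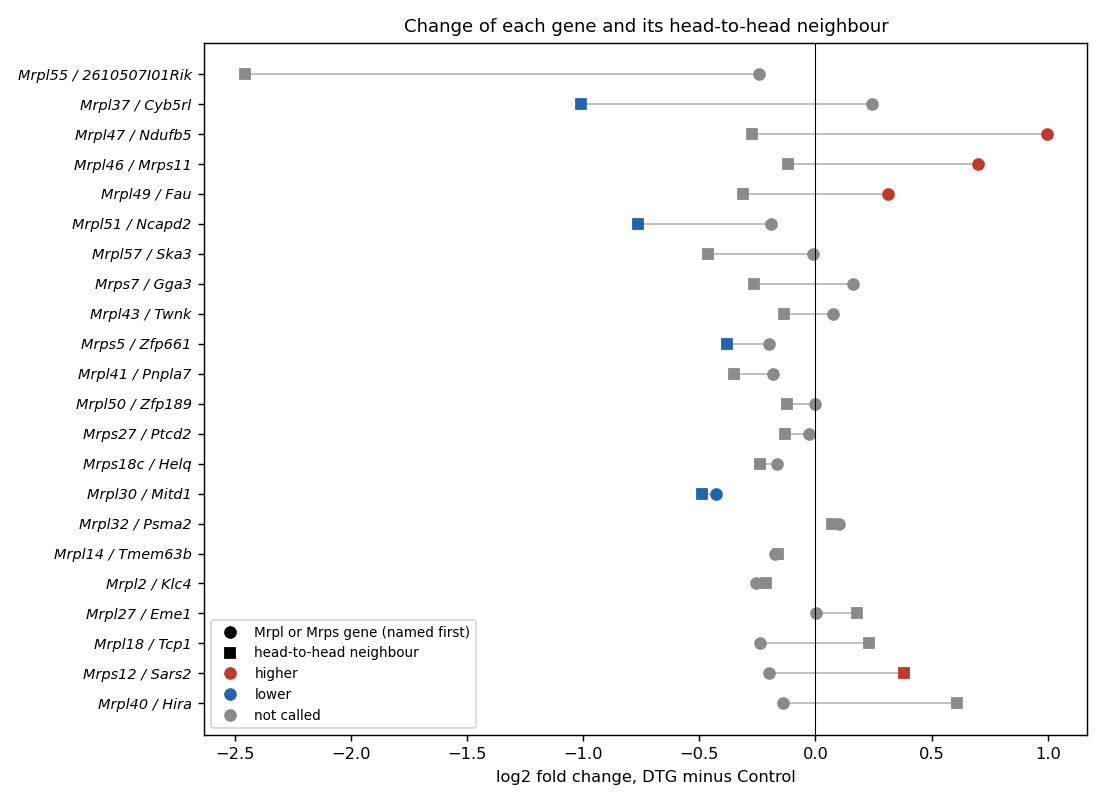
Log2 fold change (DTG minus Control, horizontal axis) of 22 mitoribosome genes (circles) and of the neighbours that start within 1000 bases on the opposite strand (squares), 1 pair a row; red was called higher, blue lower, grey not called. Mrpl47 and Mrpl46 lie at 0.998 and 0.70 with neighbours at -0.27 and -0.12, whereas Mrpl30 and Mitd1 lie side by side at -0.43 and -0.49.

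The promoter windows were searched on both strands for the core letters of motifs known from genes of mitochondrial proteins. Of 78 members, 69 had a window in RefSeq, 68 of them tested. The NRF1 motif, GCGCA and GCGC with 1 base of any kind between them, was found in 13 of 68 (19.1%), against 7.88% of the windows of named genes tested and 4.78% of all windows. The ETS motif, CCGGAAG, which the factor GABP binds, was found in 24 (35.3%), against 13.9% and 9.12%, and the YY1 motif, AAGATGGCG, in 8 (11.8%), against 2.38% and 1.495%. The E-box, CACGTG, known for MYC, was found in 5 (7.35%), against 8.97% and 7.24%. Matches of 1 motif may overlap, as in the Mrps26 window printed above.

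Motif and direction were set side by side for the called genes with a window. An ETS match was found in 0 of 7 genes called higher and 4 of 9 called lower (Mrps26, Mrps16, Mrpl3 and Mrpl58). An NRF1 match was found in 2 of 7 called higher (Mrpl9 and Mrpl39) and 3 of 9 called lower (Mrps26, Mrpl30 and Mrpl12), and YY1 and E-box matches in 0 of either. Over all 68 members the median change was -0.16 in the 24 with an ETS match and -0.06 in the 44 without, and -0.05 in the 13 with an NRF1 match and -0.07 in the 55 without. These are descriptions of letters in a window and carry no test.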

How the data were processed

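The scanner tables deposited by the authors hold linear intensity values, written by Agilent Feature Extraction. Its version is 11.5.1.1 in the headers of these files and 10.7 per the submitters' processing notes. The software had already subtracted background from the processed signal. Other deposited columns flag outlier spots and mark signal well above background. The deposited series-wide values, also a linear intensity without scaling between arrays, served only as an alternative. The headers name build mm9; RefSeq GRCm38.p6 gave gene names and promoter windows.

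Outlier-flagged spots were left out, spots of a probe averaged and log2 values set relative to each array's 75th percentile. Probes well above background on at least 3 of 4 arrays of 1 group were kept, and the brightest stood for a gene. limma 3.58.1 in R 4.3.3 (data.table, version 1.17.8) tested DTG against Control, two-sided and unpaired; the fit was tested on simulated data. The median SE of a log2 fold change was 0.14 over all genes and 0.10 over the members, a precision limited by how many arrays there were. The "fit over probes" is the same model on every kept named probe. Groups follow the tissue label, and replicates were numbered in deposit order. Named were all called members, the 4 brightest and 4 dimmest, those whose probes disagreed, Mrps12, Mrps18a, Mrps18b, Mrps18c and Mrps30, untested members and up to 4 genes per other list with the smallest p, of which 1 is not reported here; the head-to-head neighbours were named after their values were seen. The members and lists were chosen with earlier results of these data known. The alternatives changed scaling, background correction, filter, flags, probe choice, values, slide column, Xist class and left out each array.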

Additional observations from a re-analysis of the deposited data

Results flagged for a closer look

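Of 72 groups of 4 arrays examined for the named members, 2 held an array far from the other 3; chance flags about 1 in 20 such groups. Mrpl12 stood at 3.05 on DTG 2, against 3.33 to 3.35 on the other DTG arrays. Mrps36 stood at 2.18 on Control 4, against 2.31 to 2.33 on the other Control arrays.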

How the results depend on the processing

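Over 22 alternative settings, Mrpl47 was called higher in all 21 that gave it a value and Mrpl46 in 21 of 22. Mrpl1, Mrpl9, Mrps26 and Mrpl48 were called in the same direction in 19 of 22, Mrps16 and Mrpl30 in 18, and Mrps6, Mrpl19, Mrpl39, Mrpl12 and Mrpl58 in 9 or 10. The rest lay between these, and the cause of the lost calls was not tested. The counts for the members were 8 higher and 9 lower as reported. The number higher was 13 with quantile, 4 with median and 34 with spike-in scaling, 5 after normexp, 2 with slide column as a block, 2 within high and 0 within low Xist. The number lower was 1 without scaling, 0 with spike-in scaling, 5 with the slide column block, 1 within high and 0 within low Xist.

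Among all genes, 3772 were lower and 1976 higher as reported; 1592 were lower without scaling, 403 with spike-in scaling, 1402 within high and 81 within low Xist. The number higher was 5610 with spike-in scaling, 3158 without the filter on dim probes, 1188 within high and 168 within low Xist. Of all genes, 2289 were higher with quantile scaling, 1812 with median scaling and 2060 after normexp. The median of the members was 0.012 without scaling, 0.37 with spike-in scaling, -0.011 within high and -0.23 within low Xist. With spike-in scaling 46 of the 48 estimates below 0 turned positive, all but Mrps26 and Mrpl48. They include the other genes called lower, Mrpl12 (0.14), Mrpl23 (0.13), Mrps36 (0.12), Mrpl58 (0.12), Mrpl3 (0.087), Mrpl30 (0.055) and Mrps16 (0.042), none of them called on that scale, and Mrps30 (0.42) and Mrpl50 (0.48), both called there; why the spike-in spots differ between the groups was not tested.

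With 1 array left out, 4 to 7 members were higher and 4 to 11 lower, 1510 to 1948 of all genes were higher and 2496 to 3379 lower, the members' median was -0.12 to -0.07, and it exceeded that of all genes by 0.02 to 0.07. The fewest members lower came without DTG 2, and the fewest higher without Control 2 or DTG 4. The replicate numbers follow the order of deposit and mark no shared animal, but they equal the slide column, so the slide column block above is also the fit with the replicate number as a block. Mrpl47 and Mrpl19 had no value within low Xist.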
